A study of Homo sapiens with 8 samples.

Results

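The transcriptional output of YAP and TAZ was examined through 10 genes chosen by name out of the 23228 genes listed in the count tables. They were the coactivators YAP1 and WWTR1 (which encodes TAZ), the DNA-binding partners TEAD1 and TEAD4, the target genes CTGF, CYR61, ANKRD1, AMOTL2 and LATS2, and the receptor tyrosine kinase AXL. All 10 members passed the filter on low counts, ANKRD1 only through its libraries with vorinostat, and were among the 13694 genes tested. BT-549, a human triple negative breast cancer cell line, was exposed for 24 h to vehicle (DMSO), to 100 nM EC359, to 10 µM vorinostat, or to EC359+vorinostat at those same doses. EC359 is an inhibitor of the leukemia inhibitory factor receptor LIFR, and vorinostat (SAHA) inhibits histone deacetylases. Total RNA of 2 libraries per group, 8 in all, was sequenced as 50-base single-end reads. The samples came from a single cell line that carries no engineered allele. The labels did not say whether the libraries of a group came from separate cultures, so p-values measured the spread between these samples, which may be technical.

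YAP and TAZ carry no DNA-binding domain of their own. When the Hippo kinases MST1/2 and LATS1/2 are active, YAP and TAZ are phosphorylated and held in the cytoplasm or degraded, and when the kinases are inactive both enter the nucleus, bind a TEAD factor and switch on genes for matricellular proteins, cytoskeletal regulators and growth. Several of these targets, among them LATS2 and AMOTL2, encode inhibitors of YAP and TAZ. mRNA counts report neither the phosphorylation nor the location of YAP and TAZ.

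TEAD factors bind the motif GGAATG, which reads as CATTCC on the opposite strand. Promoters of the members are shown because the target genes among them are known for being read through this element. RefSeq promoter windows on GRCh38.p14, from 250 bases before a transcription start to 50 after it, were on hand for 7 of the 10 members, in 10 windows. CYR61, TEAD1 and TEAD4 had no entry. The motif, searched on both strands and as the only motif, occurred in 6 of these windows, each of a different member. Over all 35116 windows of the same length, 14.0% held it at least once, 1.37% held it at least 2 times and 0.128% (45 windows) held it at least 3 times. The 250 bases before the start are printed 5′ to 3′ on the gene's strand for CTGF (chr6:131951373-131951622, minus strand), ANKRD1 (chr10:90921088-90921337, minus strand), YAP1 (chr11:102110197-102110446, plus strand) and a start of AMOTL2 (chr3:134374448-134374697, minus strand), with the motif in capitals.
CTGF: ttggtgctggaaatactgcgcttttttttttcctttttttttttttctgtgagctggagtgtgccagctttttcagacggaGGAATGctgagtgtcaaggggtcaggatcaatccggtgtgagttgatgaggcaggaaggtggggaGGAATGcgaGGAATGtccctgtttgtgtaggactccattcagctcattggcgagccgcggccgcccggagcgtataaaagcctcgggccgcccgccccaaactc
ANKRD1: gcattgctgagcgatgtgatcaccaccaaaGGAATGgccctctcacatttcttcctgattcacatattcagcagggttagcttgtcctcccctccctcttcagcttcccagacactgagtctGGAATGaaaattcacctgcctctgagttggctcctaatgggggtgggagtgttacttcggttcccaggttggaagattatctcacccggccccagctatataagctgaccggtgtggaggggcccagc
YAP1: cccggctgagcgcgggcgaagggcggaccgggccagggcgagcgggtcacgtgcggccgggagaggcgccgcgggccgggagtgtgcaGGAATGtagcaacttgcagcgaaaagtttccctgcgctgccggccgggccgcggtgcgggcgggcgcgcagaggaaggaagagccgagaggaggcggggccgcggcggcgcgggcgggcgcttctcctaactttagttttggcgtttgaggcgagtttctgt
AMOTL2: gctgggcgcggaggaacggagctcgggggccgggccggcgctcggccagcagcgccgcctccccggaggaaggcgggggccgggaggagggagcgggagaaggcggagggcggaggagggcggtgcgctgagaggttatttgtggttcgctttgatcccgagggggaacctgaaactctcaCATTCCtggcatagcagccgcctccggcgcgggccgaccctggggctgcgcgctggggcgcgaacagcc
CTGF held 3 matches, which began 169, 104 and 95 bases before the start. ANKRD1 held 2 matches, 220 and 128 bases before the start. YAP1 held a match 162 bases before its start, AMOTL2 held CATTCC 69 bases before the start shown, and AXL held CATTCC 212 bases before the second of its 2 annotated starts. The LATS2 match began 10 bases after the start, and neither WWTR1 window held the motif. A match is a run of letters in a window and was not measured as a binding site in these cells.

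Counts on genes ranged from 19069450 to 24759041 per library. Levels are given as normalized CPM, that is counts scaled to the library's total with edgeR's TMM factors, and changes as log2 fold changes with their standard error (SE) from edgeR's quasi-likelihood test fitted on all 8 libraries, with Benjamini-Hochberg adjustment over all 13694 genes. A gene was called where its adjusted p was under 0.01 and its log2 fold change exceeded 1 in size. The EC359 libraries differed most from each other, with an SD across genes of 0.56 for the log2 difference between libraries, against 0.31 to 0.45 in the other groups. The summed level of the mesenchymal markers VIM, FN1, SPARC, COL1A1, COL1A2 and THY1 was 10990 to 17606 normalized CPM in every library, whereas the summed epithelial markers reached 3.35 to 27.3. The mesenchymal genes did not move together, since with EC359+vorinostat VIM rose by 2.15 on the log2 scale (adjusted p = 5.2e-08) while SPARC fell by 1.93 (adjusted p = 7.1e-08), COL1A2 by 1.68 (adjusted p = 1.5e-06) and THY1 by 1.21 (adjusted p = 1.2e-04). The summed epithelial level was at most 8.37 in the vehicle and EC359 libraries, 14.2 and 26.6 with vorinostat, and 3.58 and 27.3 in the EC359+vorinostat libraries. All 6 epithelial markers lay above vehicle with vorinostat, with no overlap (88.9% of all genes did not overlap) and a median log2 fold change of 2.34. With edgeR, EPCAM was the marker called higher with vorinostat, at no more than 4.27 normalized CPM. With EC359+vorinostat edgeR called 0. DESeq2 called 3 of the 6 in each of these comparisons. By edgeR 30.1% and 34.8% of all genes were called in them. The part of this rise in the changes with vorinostat was not tested. ESR1 did not exceed 1.02 normalized CPM and PGR did not exceed 0.0511, while ERBB2 lay between 96.1 and 102 in vehicle and at no more than 15.8 in the 4 libraries with vorinostat. Immune and endothelial markers were at or near 0, apart from CD68, a lysosomal gene, at 39.8 to 47.3 in vehicle, 120.2 to 202 with EC359, 71.8 to 72.7 with vorinostat and 222 to 267 with EC359+vorinostat. LIFR, the receptor that EC359 inhibits, was 23.4 and 28.0 normalized CPM in vehicle, 16.7 and 14.1 with EC359, 80.3 and 81.0 with vorinostat, and 118 and 119.5 with EC359+vorinostat.

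Of the coactivators, YAP1 fell with vorinostat and with EC359+vorinostat, and WWTR1 rose with EC359+vorinostat. YAP1 (chr11:101981178-102104155, plus strand, GRCh37) was 228 and 255 normalized CPM in the vehicle libraries, 236 and 289 with EC359, 60.3 and 57.1 with vorinostat, and 63.5 and 44.2 with EC359+vorinostat. All 4 libraries with vorinostat lay below all 4 libraries without it, with no overlap. YAP1 fell by 2.04 on the log2 scale with vorinostat (SE 0.17, adjusted p = 9.2e-06, a 4.11-fold fall) and by 2.16 with EC359+vorinostat (SE 0.17, adjusted p = 5.2e-06). EC359 alone gave a log2 difference of 0.12 from vehicle (SE 0.16, adjusted p = 0.66), and adding EC359 to vorinostat gave -0.12 (SE 0.17, adjusted p = 0.62), so neither difference exceeded the spread between libraries. YAP1 shares 628 exonic bases with an opposite-strand long noncoding transcript and 11 with another. A fall in a bulk library cannot be told apart as fewer cells with the transcript or less of it per cell, and this holds for every value given here.

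WWTR1 (chr3:149235022-149454501, minus strand, GRCh37) was 83.5 and 73.7 normalized CPM in vehicle, 148 and 108 with EC359, 115 in both vorinostat libraries, and 157 and 167 with EC359+vorinostat. Every treated library lay above the vehicle libraries. WWTR1 rose 2.06-fold with EC359+vorinostat, a log2 fold change of 1.05 (SE 0.14, adjusted p = 1.5e-04). The log2 fold changes with EC359 (0.71, SE 0.14, adjusted p = 0.0098) and vorinostat (0.55, SE 0.14, adjusted p = 0.0076) passed the p threshold but not the fold threshold. The called change with EC359+vorinostat sits at the fold threshold, and it was 0.95 without the second vehicle library and 0.97 when libraries were scaled by total counts. The adjusted p with EC359 alone ranged from 7.5e-06 to 0.11 over the alternatives. WWTR1 overlaps the antisense transcript WWTR1-AS1 over 756 exonic bases, which had 5 to 15 counts per library.

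Per length, YAP1 was the more abundant coactivator transcript without vorinostat and the less abundant with it. Levels per kilobase of transcript (normalized CPM per kilobase, RPKM) were 42.2 and 47.2 for YAP1 against 16.6 and 14.6 for WWTR1 in vehicle, and 43.6 and 53.5 against 29.3 and 21.5 with EC359. With vorinostat YAP1 was 11.2 and 10.6 against 22.8 in both libraries for WWTR1, and with EC359+vorinostat 11.8 and 8.19 against 31.3 and 33.2. YAP1 therefore made up 59.8% to 76.3% of the summed YAP1 and WWTR1 level in the 4 libraries without vorinostat and 19.8% to 32.9% in the 4 with it. The exact two-sided permutation test of 4 against 4 libraries gave p = 0.0286, the smallest it can give. The summed level itself was 58.8 to 75.0 RPKM without vorinostat and 33.4 to 43.0 with it (exact permutation p = 0.0286). With the share and the sum of the TEAD factors, these were 4 such tests, and each had the smallest p the design allows, so the adjusted p was also 0.0286. The 4 tests pooled libraries with and without EC359 and took all 8 as exchangeable. Their split followed the falls of YAP1, TEAD2 and TEAD4 with vorinostat called on the same values, so they add no separate support.

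**Figure D1:**
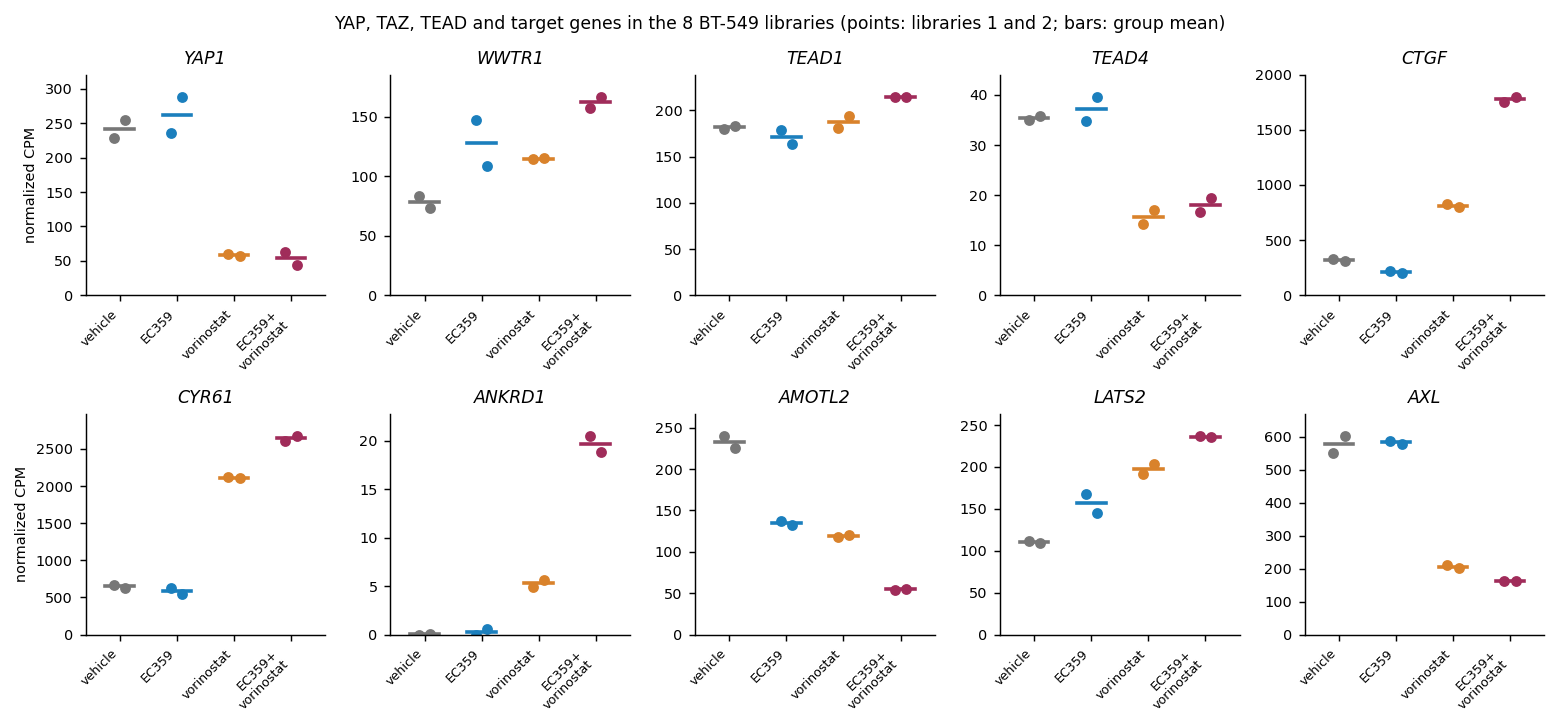
Normalized CPM of the 10 members in each of the 8 libraries, one panel per gene with a linear axis from 0; points are libraries and bars are group means of 2 libraries. YAP1, TEAD4, AMOTL2 and AXL sit lower in the 4 libraries with vorinostat than in vehicle, whereas CTGF, CYR61, ANKRD1, LATS2 and WWTR1 sit higher.

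TEAD4 fell with vorinostat, and TEAD1 was called in none of the comparisons. TEAD1 (chr11:12695968-12966284, plus strand, GRCh37) was 179.6 and 183 normalized CPM in vehicle, 179 and 163 with EC359, 181 and 193 with vorinostat, and 215 in both EC359+vorinostat libraries. Vehicle and vorinostat overlapped, both EC359 libraries lay just below them, and EC359+vorinostat was the highest. Its log2 difference between EC359+vorinostat and vehicle was 0.24 (SE 0.09, adjusted p = 0.033), and between EC359+vorinostat and EC359 it was 0.33 (SE 0.09, adjusted p = 0.0084).

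TEAD4 (chr12:3068496-3149842, plus strand, GRCh37) was 35.0 and 35.8 normalized CPM in vehicle, 34.8 and 39.7 with EC359, 14.2 and 17.1 with vorinostat, and 16.6 and 19.5 with EC359+vorinostat. The libraries with vorinostat again lay below those without it, and the EC359 libraries overlapped vehicle. TEAD4 fell by 1.18 on the log2 scale with vorinostat (SE 0.14, adjusted p = 9.3e-05, a 2.26-fold fall). With EC359+vorinostat the log2 difference from vehicle was -0.97 (SE 0.14, adjusted p = 2.6e-04), just inside the fold threshold, and it was -1.05 under total-count scaling. EC359 alone gave 0.07 (SE 0.14, adjusted p = 0.76).

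Of the TEAD family, TEAD2 fell with vorinostat as well, and TEAD1 became the most abundant of the family per length. TEAD2 was 82.4 and 73.6 normalized CPM in vehicle, 64.6 and 54.7 with EC359, 23.5 and 22.7 with vorinostat, and 13.4 and 17.4 with EC359+vorinostat. Its log2 fold change was -1.76 with vorinostat (SE 0.15, adjusted p = 8.4e-06) and -2.34 with EC359+vorinostat (SE 0.15, adjusted p = 1.4e-06). TEAD3 was not called, at 0.41 with vorinostat (SE 0.20, adjusted p = 0.094). Per kilobase, TEAD2 was the highest of the 4 in vehicle at 37.9 and 33.8 RPKM, beside 19.1 and 19.5 for TEAD1, 20.5 and 21.0 for TEAD4, and 4.49 and 4.21 for TEAD3. The order of TEAD1 and TEAD4 in vehicle rested on a difference of under 2 RPKM. In normalized CPM TEAD1 was the highest of the 4 in every group. Its change of rank appeared only per length, with 9417 bases for TEAD1 and 2175 for TEAD2. With EC359+vorinostat TEAD1 was the highest at 22.8 RPKM in both libraries, followed by TEAD4 at 9.73 and 11.4, TEAD2 at 6.16 and 7.98, and TEAD3 at 4.54 and 6.55, with TEAD2 and TEAD3 overlapping. TEAD1 held 23.3% to 26.4% of the summed TEAD level without vorinostat and 43.5% to 52.7% with it (exact two-sided permutation p = 0.0286). The summed TEAD level was 69.3 to 81.9 RPKM without vorinostat and 43.2 to 48.7 with it (exact permutation p = 0.0286). As for YAP1 and WWTR1, the split followed falls called on the same values, here of TEAD2 and TEAD4. It also pooled libraries with and without EC359, so these p-values add no separate support. TEAD1 itself differed by 0.04 on the log2 scale between vorinostat and vehicle. TEAD2 overlaps the coding gene CD37 on the opposite strand over 319 exonic bases.

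**Figure D2:**
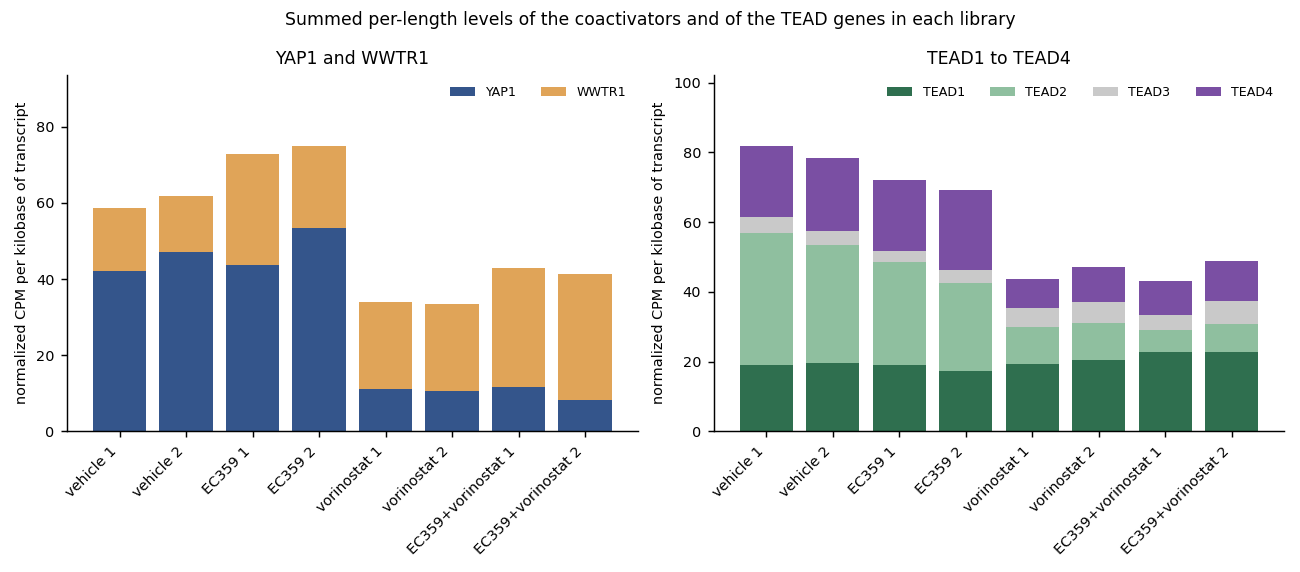
Levels per kilobase of transcript (RPKM, linear axis from 0) stacked for YAP1 and WWTR1 and for TEAD1 to TEAD4 in each of the 8 libraries. YAP1 is the larger segment in the libraries without vorinostat (59.8% to 76.3%) and the smaller in those with it (19.8% to 32.9%), and TEAD1 grows from at most 26.4% to at least 43.5% of the TEAD sum.

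CTGF and CYR61, the secreted matricellular proteins CCN2 and CCN1 that are the most used readouts of YAP and TAZ activity, rose with vorinostat while YAP1 fell. CTGF (chr6:132269316-132272512, minus strand, GRCh37) was 328 and 307 normalized CPM in vehicle, 219.7 and 202 with EC359, 826 and 796 with vorinostat, and 1749.7 and 1801 with EC359+vorinostat. No 2 groups overlapped. EC359 alone was the lowest group and EC359+vorinostat the highest. CTGF rose 2.56-fold with vorinostat (log2 fold change 1.35, SE 0.08, adjusted p = 1.6e-06) and 5.59-fold with EC359+vorinostat (2.48, SE 0.09, adjusted p = 6.2e-08). Adding EC359 to vorinostat raised it 2.19-fold (1.13, SE 0.08, adjusted p = 2.9e-05). With EC359 alone the log2 difference from vehicle was -0.59 (SE 0.08, adjusted p = 0.0014), which did not reach the fold threshold. CTGF shares 278 exonic bases with the opposite-strand transcript LINC01013.

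The effect of EC359 on CTGF thus had opposite signs in the absence and the presence of vorinostat, and that difference was tested directly. The interaction term was 1.72 on the log2 scale (SE 0.12, adjusted p = 1.2e-04), and the sum of the changes with each agent alone was 0.77, against 2.48 measured with EC359+vorinostat. CTGF was the only member with a called interaction, for which an adjusted p under 0.01 sufficed, in a table where 2.1% of all genes were called (1.62% higher and 0.482% lower). That background moved from 56 to 1437 genes when a library was left out, and CTGF was called each time. The interaction lay between 1.64 and 1.78 over all alternatives, with adjusted p between 1.4e-27 and 0.0033.

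CYR61 (chr1:86046444-86050272, plus strand, GRCh37) was 673 and 629 normalized CPM in vehicle, 628 and 545 with EC359, 2124 and 2106 with vorinostat, and 2609 and 2676 with EC359+vorinostat. The libraries with vorinostat lay above the rest, and EC359 sat at or just below vehicle. CYR61 rose 3.25-fold with vorinostat (log2 fold change 1.70, SE 0.09, adjusted p = 7.3e-07) and 4.06-fold with EC359+vorinostat (2.02, SE 0.09, adjusted p = 2.1e-07). The addition of EC359 to vorinostat gave 0.32 (SE 0.09, adjusted p = 0.024), which was not called, although the libraries of those groups did not overlap. The interaction was 0.47 (SE 0.12, adjusted p = 0.055). It was 0.58 with adjusted p = 4.7e-04 without the first EC359 library and 0.36 with adjusted p = 0.0082 without the second, and its adjusted p ranged from 4.7e-04 to 0.29 over the alternatives.

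ANKRD1 (chr10:92671853-92680844, minus strand, GRCh37), a nuclear and sarcomeric ankyrin repeat protein, was nearly silent without vorinostat. It had 0 and 1 counts in the vehicle libraries, 0 and 12 with EC359, 96 and 133 with vorinostat, and 401 and 370 with EC359+vorinostat. In normalized CPM these were 0 and 0.0467, 0 and 0.609, 4.94 and 5.65, and 20.5 and 18.9. The libraries with vorinostat did not overlap those without it, and EC359 overlapped vehicle. Because vehicle held a single count, the ratio to vehicle is given with its 95% exact counting interval, which covers counting error only. It was 227 (40.3 to 9005) for vorinostat, 839 (150.2 to 33196) for EC359+vorinostat and 11.6 (1.72 to 497) for EC359, whose counts came from 1 of its 2 libraries. In the test across genes ANKRD1 rose with vorinostat (adjusted p = 9.7e-05) and EC359+vorinostat (adjusted p = 8.4e-06), whereas EC359 alone did not pass (adjusted p = 0.21). ANKRD1 passed the filter on low counts only through the libraries with vorinostat, so these calls are not independent of that filter.

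Adding EC359 to vorinostat raised ANKRD1 by 1.89 on the log2 scale (SE 0.39, adjusted p = 0.0079), a 3.71-fold difference in levels. This call was sensitive to the test. The adjusted p was 0.36 with DESeq2, 0.011 with total-count scaling, and 0.018 to 0.098 when any 1 vehicle, vorinostat or EC359+vorinostat library was left out, and it spanned 1.7e-06 to 0.36 over all alternatives, while the log2 fold change stayed between 1.76 and 1.96.

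AMOTL2 and LATS2, both inhibitors of YAP and TAZ as well as targets of them, changed in opposite directions with EC359+vorinostat. AMOTL2 (chr3:134074189-134094321, minus strand, GRCh37), an angiomotin family protein that holds YAP at junctions, was 240.0 and 225 normalized CPM in vehicle, 137 and 133 with EC359, 117 and 119.8 with vorinostat, and 53.6 and 55.3 with EC359+vorinostat. No 2 groups overlapped, and vehicle was the highest and EC359+vorinostat the lowest. AMOTL2 fell 4.27-fold with EC359+vorinostat (log2 fold change -2.09, SE 0.09, adjusted p = 1.6e-07) and 2.18-fold when EC359 was added to vorinostat (-1.12, SE 0.09, adjusted p = 4.2e-05). Each agent alone gave a difference just under the fold threshold, -0.79 with EC359 (SE 0.08, adjusted p = 3.3e-04) and -0.97 with vorinostat (SE 0.09, adjusted p = 1.2e-05). Its interaction was -0.34 (SE 0.12, adjusted p = 0.14). A same-strand pseudogene, RPL39P5, overlaps 187 of its exonic bases.

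LATS2 (chr13:21547175-21635725, minus strand, GRCh37), the kinase that phosphorylates YAP and TAZ, was 111 and 109 normalized CPM in vehicle, 168 and 145 with EC359, 192 and 204 with vorinostat, and 237 and 236 with EC359+vorinostat. The 4 groups did not overlap and stood in the reverse order to AMOTL2. LATS2 rose 2.14-fold with EC359+vorinostat (log2 fold change 1.10, SE 0.10, adjusted p = 9.2e-06). With EC359 (0.51, SE 0.10, adjusted p = 0.0074) and with vorinostat (0.84, SE 0.10, adjusted p = 5.9e-05) it passed the p threshold only. The adjusted p with EC359 was 0.014 with the replicate number as a block in the edgeR test, which did not pass. The addition of EC359 to vorinostat gave 0.26 (SE 0.10, adjusted p = 0.074).

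AXL (chr19:41725128-41767671, plus strand, GRCh37), a receptor of the TAM family that is tied to invasion and drug resistance in breast cancer, fell with vorinostat. It was 552 and 602 normalized CPM in vehicle, 588 and 577 with EC359, 209.6 and 201 with vorinostat, and 163 in both EC359+vorinostat libraries. EC359 lay within the range of vehicle and the libraries with vorinostat lay far below. AXL fell 2.81-fold with vorinostat (log2 fold change -1.49, SE 0.08, adjusted p = 1.0e-06) and 3.54-fold with EC359+vorinostat (-1.82, SE 0.08, adjusted p = 2.6e-07). EC359 alone gave 0.01 (SE 0.08, adjusted p = 0.93), and on top of vorinostat it gave -0.33 (SE 0.08, adjusted p = 0.017), which was not called. AXL shares 67 exonic bases with an opposite-strand long noncoding transcript.

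**Figure D3:**
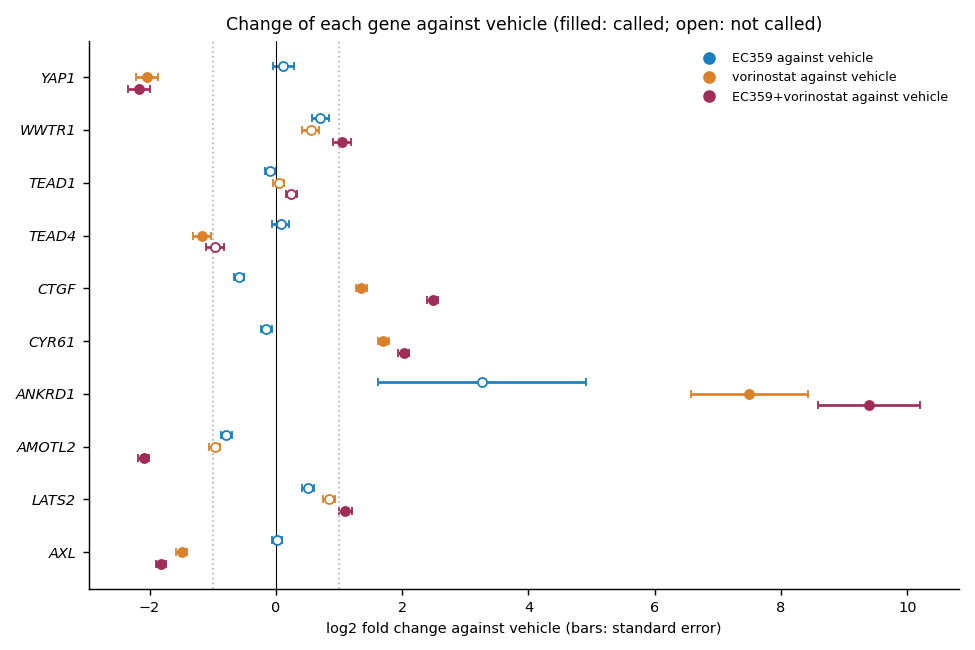
Log2 fold change against vehicle of the 10 members with EC359, vorinostat and EC359+vorinostat; points are edgeR estimates, bars are 1 SE and filled points are called. With EC359 no point is filled, and with EC359+vorinostat every member but TEAD1 and TEAD4 is filled.

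Over the members as a list, EC359 alone called 0 of 10, where 3.67% of all genes tested were called (1.94% higher and 1.72% lower). At any fold, 4 members had an adjusted p under 0.01 (WWTR1 and LATS2 higher, CTGF and AMOTL2 lower, against 7.82% of all genes). With the replicate number as a block in the edgeR test, WWTR1 (adjusted p = 0.012) and LATS2 (adjusted p = 0.014) did not pass. CTGF (adjusted p = 0.0031) and AMOTL2 (adjusted p = 0.0011) did. An unadjusted p under 0.05 was reached by 4 members (share of all genes not counted), and DESeq2 also called 0. Vorinostat called 6 of 10 (30.1% of all genes, 16.8% higher and 13.3% lower), with CTGF, CYR61 and ANKRD1 higher and YAP1, TEAD4 and AXL lower. EC359+vorinostat called 8 of 10 (34.8% of all genes, 19.5% higher and 15.3% lower), with WWTR1, CTGF, CYR61, ANKRD1 and LATS2 higher and YAP1, AMOTL2 and AXL lower. These 3 comparisons share the vehicle libraries. ANKRD1, among the members called with vorinostat, passed the filter on low counts only through the libraries with vorinostat. Against EC359 alone, EC359+vorinostat called 7 of 10 (33.7% of all genes, 19.8% higher and 13.9% lower), 3 higher and 4 lower. Against vorinostat alone it called 3 of 10 (4.25% of all genes, 3.37% higher and 0.876% lower), with CTGF and ANKRD1 higher and AMOTL2 lower. The median log2 fold change of the members was 0.04 with EC359, 0.30 with vorinostat and 0.64 with EC359+vorinostat, beside -0.02, 0.03 and 0.07 over all genes, and 0.23 against -0.01 for the addition of EC359 to vorinostat. The libraries of the groups compared did not overlap for 6 members with EC359 (53.4% of all genes), 9 with vorinostat (88.9%) and 10 with EC359+vorinostat (86.5%), nor for 8 between EC359+vorinostat and vorinostat (72.9%) and 10 between EC359+vorinostat and EC359 (79.7%). The list moved in both directions, and its median stands for neither group of members. The members were chosen with earlier results of these data known, so these shares and medians are not independent of the data.

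**Figure D4:**
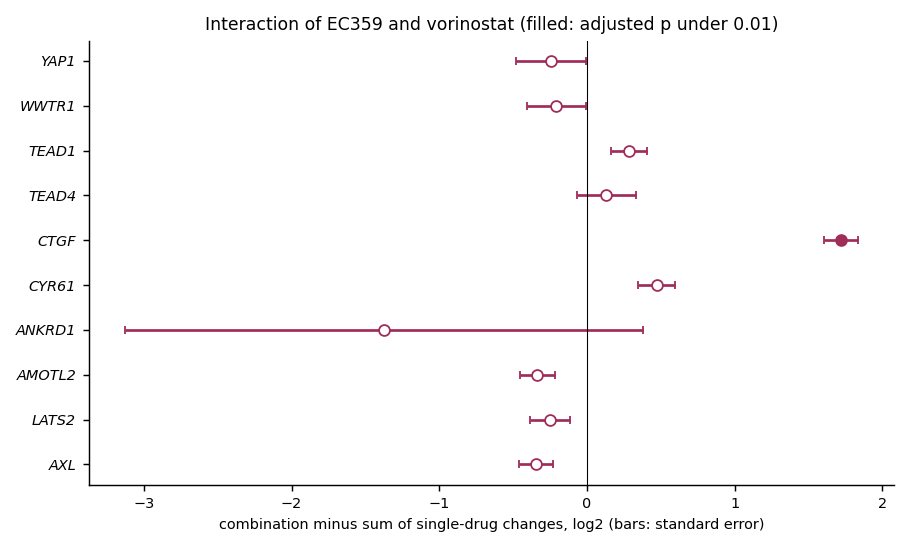
Interaction of EC359 and vorinostat on the log2 scale for the 10 members, with bars of 1 SE; 0 means that the changes with each agent alone add up. CTGF stands at 1.72 and is the only member called, and ANKRD1, with 0 to 12 counts per library without vorinostat, has the widest bar (-1.37, SE 1.75).

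Upstream, the Hippo kinase cascade list (16 genes, all tested) held 1 gene called higher with EC359 (3.67% of all genes were called), 2 higher and 3 lower with vorinostat (30.1% of all genes), and 3 higher and 1 lower with EC359+vorinostat (34.8% of all genes), so the counts with vorinostat were near or below those of all genes. Its median log2 fold change was 0.16, -0.08 and 0.16 in those comparisons. TAOK3, a kinase that activates MST kinases, was 16.1 and 12.2 normalized CPM in vehicle, 54.2 and 30.9 with EC359, 69.6 and 65.7 with vorinostat, and 86.5 and 99.9 with EC359+vorinostat. It rose by 1.59 with EC359 (SE 0.25, adjusted p = 0.0026) and by 2.26 with vorinostat (SE 0.25, adjusted p = 4.6e-05) on the log2 scale. MAP4K4, a kinase that acts on LATS in parallel to MST, fell by 1.40 with vorinostat (SE 0.21, adjusted p = 3.6e-04), and its EC359 libraries were far apart at 654 and 381. FRMD6, an activator of the cascade, fell by 1.40 with vorinostat (SE 0.09, adjusted p = 2.0e-06). No gene of the list was called when EC359 was added to vorinostat (4.25% of all genes), and DESeq2 also called 0. An unadjusted p under 0.05 was reached there by 10 of 16. The share of all genes at that threshold was not counted, and the 4.25% is for called genes only. At any fold, 5 were higher and 1 lower at an adjusted p under 0.01, against 1877 of all 13694 genes. The median log2 fold change of the list was 0.39 there, beside -0.01 over all genes.

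Among 13 junction and polarity regulators, 12 were tested. EC359 called 2 lower (1.72% of all genes were called lower), vorinostat 2 higher and 2 lower (16.8% and 13.3% of all genes), and EC359+vorinostat 1 higher and 5 lower (19.5% and 15.3%). Their median log2 fold change was -0.12, -0.52 and -0.28. JUB (AJUBA), a LIM protein that restrains LATS, fell by 1.21 with EC359 (SE 0.16, adjusted p = 0.0013) and by 2.19 with vorinostat (SE 0.17, adjusted p = 6.0e-06). Its relative WTIP fell by 2.39 with vorinostat (SE 0.28, adjusted p = 7.4e-05). AMOT, the founding angiomotin and a paralog of AMOTL2, was 8.17 and 7.89 normalized CPM in vehicle, 3.79 and 3.50 with EC359, 16.6 and 21.0 with vorinostat, and 18.5 and 16.4 with EC359+vorinostat. It thus fell by 1.14 with EC359 (SE 0.18, adjusted p = 0.0030) and rose by 1.23 with vorinostat (SE 0.16, adjusted p = 1.6e-04), whereas AMOTL2 was lower with each agent. CRB3, an apical polarity protein, was called higher with vorinostat (4.22, SE 0.95, adjusted p = 0.0036) at no more than 2.16 normalized CPM. Adding EC359 to vorinostat called 0 of 12 (4.25% of all genes), and DESeq2 also called 0. An unadjusted p under 0.05 was reached by 5 (share of all genes not counted).

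Of 6 other nuclear partners 5 were tested. EC359 alone called 0 of them (3.67% of all genes), and DESeq2 also called 0. An unadjusted p under 0.05 was reached by 3 (share of all genes not counted). Vorinostat called 1 higher and 2 lower (16.8% and 13.3% of all genes). EC359+vorinostat called 1 higher and 1 lower (19.5% and 15.3%), and the addition of EC359 to vorinostat called 1 higher (3.37%). VGLL4, a cofactor that competes with YAP for TEAD, was 71.6 and 75.5 normalized CPM in vehicle, 124 and 112 with EC359, 32.3 and 32.4 with vorinostat, and 73.1 and 68.7 with EC359+vorinostat. It fell by 1.19 with vorinostat (SE 0.10, adjusted p = 8.4e-06) and rose by 1.13 when EC359 was added (SE 0.10, adjusted p = 8.6e-05), so that EC359+vorinostat lay at the vehicle level (log2 difference -0.05, SE 0.10, adjusted p = 0.64). VGLL2, a TEAD cofactor of muscle, had 0 counts in all vehicle and EC359 libraries, 45 counts over the vorinostat libraries and 52 over the EC359+vorinostat libraries. With a floor of 3 counts over the group, it was at least 14.9-fold higher with vorinostat than with vehicle, and at least 18.9-fold higher with EC359+vorinostat.

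The other YAP and TAZ targets, 16 genes of which 15 were tested, were called lower more often than higher with vorinostat and with EC359+vorinostat. EC359 called 2 higher and 2 lower (1.94% and 1.72% of all genes), vorinostat 1 higher and 7 lower (16.8% and 13.3% of all genes), and EC359+vorinostat 2 higher and 8 lower (19.5% and 15.3%). Their median log2 fold change was -0.23, -0.90 and -1.07. PTPN14 stands in this list and among the junction regulators. MYOF, a membrane repair protein, was 854 and 805 normalized CPM in vehicle, 780 and 633 with EC359, 111 and 114 with vorinostat, and 108 and 117 with EC359+vorinostat, and it fell by 2.88 with vorinostat (SE 0.12, adjusted p = 2.5e-07). F3, tissue factor, was the gene called higher with vorinostat (3.49, SE 0.49, adjusted p = 2.1e-04), with 4 to 8 counts per vehicle library and 55 to 85 with vorinostat. At any fold, 4 genes of the list were higher and 9 lower with vorinostat at an adjusted p under 0.01, against 7130 of all 13694 genes. The higher ones besides F3 were GADD45A (0.88, adjusted p = 4.6e-05), the kinase gene NUAK2 (0.87, adjusted p = 2.5e-04) and IGFBP3, an insulin-like growth factor binding protein (0.47, adjusted p = 0.0021).

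NT5E, the ectonucleotidase CD73, was 292 and 286 normalized CPM in vehicle, 997 and 870 with EC359, 154 and 155 with vorinostat, and 409 and 415 with EC359+vorinostat. It rose by 1.69 with EC359 (SE 0.09, adjusted p = 6.1e-06) and by 1.41 when EC359 was added to vorinostat (SE 0.09, adjusted p = 1.4e-05), with an interaction of -0.28 (SE 0.12, adjusted p = 0.23). GADD45A, a stress and DNA damage response gene, was 32.1 and 34.8 in vehicle, 78.4 and 72.1 with EC359, 62.5 and 60.2 with vorinostat, and 247 and 256 with EC359+vorinostat. It rose by 1.17 with EC359 (SE 0.10, adjusted p = 6.9e-05) and by 2.04 when EC359 was added to vorinostat (SE 0.10, adjusted p = 2.1e-06). Besides CTGF among the members, GADD45A (interaction 0.87, SE 0.13, adjusted p = 0.0065) and FJX1, a Golgi kinase of the Fat pathway (1.36, SE 0.17, adjusted p = 0.0028), were the genes of this list with a called interaction. Of all genes, 2.1% had a called interaction (1.62% higher and 0.482% lower). DESeq2 called 3 genes of the list, and 685 of all genes. FJX1 was 140.3 and 160.4 in vehicle, 86.8 and 107 with EC359, 40.4 and 38.1 with vorinostat, and 65.4 and 65.1 with EC359+vorinostat, and the log2 difference that EC359 made was -0.63 without vorinostat (SE 0.12, adjusted p = 0.0079) and 0.73 with it (SE 0.12, adjusted p = 0.0031).

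**Figure D5:**
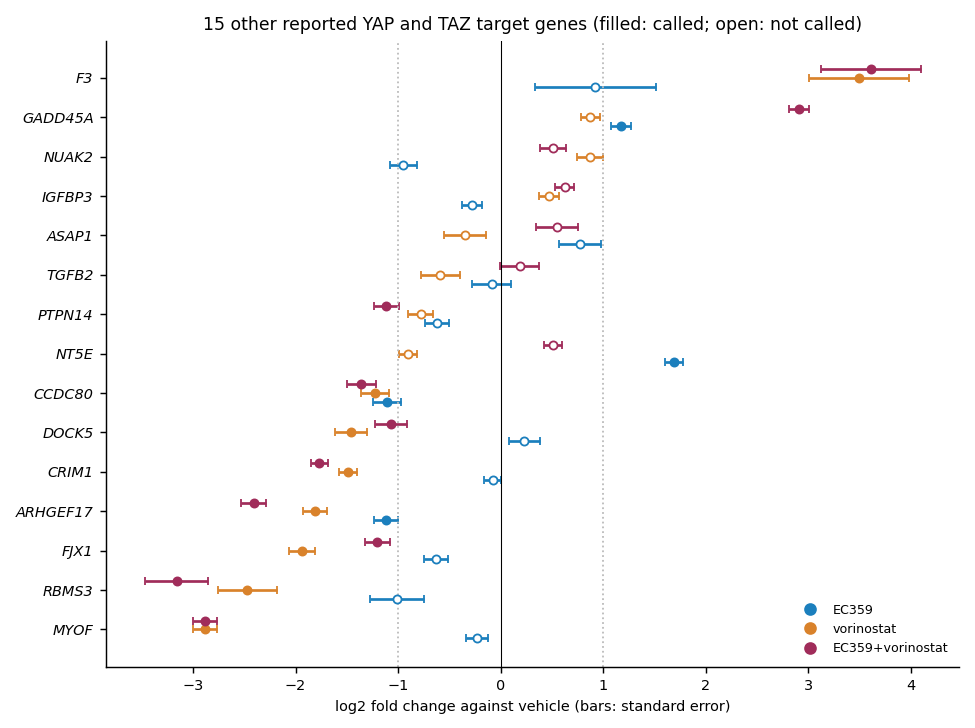
Log2 fold change against vehicle of the 15 tested genes of the list of other YAP and TAZ targets with EC359, vorinostat and EC359+vorinostat, with bars of 1 SE and filled points for called genes. Vorinostat called 7 of the 15 lower and 1 higher, F3, and EC359 called NT5E and GADD45A higher.

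The genes whose pattern over the 8 libraries was nearest to that of CTGF, CYR61 and ANKRD1 were sought among 9745 tested genes, by the smallest root mean square difference of log2 levels centred on their mean. For CTGF these included the angiotensin receptor AGTR1 (0.16) and the endoplasmic reticulum chaperone HSPA5 (0.18). HSPA5 averaged 1689 normalized CPM in vehicle, 1299.6 with EC359, 5714 with vorinostat and 12108 with EC359+vorinostat. For CYR61 they were SEPT3 (0.065), LRRC49 (0.085) and POLR3GL (0.098), so its likeness to these genes was closer. For ANKRD1 they included AVPI1 (0.93) and TFPI2 (0.94), at a wider distance. TFPI2, a secreted serine protease inhibitor, averaged 25.5 normalized CPM in vehicle, 68.0 with EC359, 496 with vorinostat and 3460.2 with EC359+vorinostat.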

How the data were processed

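BT-549 RNA was sequenced in 8 libraries, 2 per treatment, and the authors deposited whole-number read counts per gene, 1 table per library, with no normalization. Per the labels, reads were processed with bcl2fastq, TopHat2 2.0.8b and HTSeq on hg19, and the study's methods name NCBI RefSeq as the annotation; the HTSeq version and its strand setting are not given in the sources used here, so reads of a gene and of an overlapping opposite-strand gene cannot be told apart. The 5 HTSeq summary rows were left out of library sizes and tests (reads on no feature were 11.0% to 14.2% and ambiguous reads 0.649% to 0.850%). Groups came from the treatment labels.

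Genes were filtered with filterByExpr (minimum count 10), scaled by TMM and tested with the quasi-likelihood test of edgeR 4.0.16 (R 4.3.3), with a mean for each of the 4 groups fitted to all 8 libraries and Benjamini-Hochberg adjustment. ANKRD1, CRB3, F3 and VGLL2 passed that filter only through libraries with vorinostat. Calls needed an adjusted p under 0.01 and a log2 fold change over 1 in size, the interaction only the p. DESeq2 1.42.0, another filter, other scalings, a replicate block and leaving out each library were alternatives. Code was tested on simulated data. Levels per kilobase used the Ensembl-canonical transcript of GENCODE 44 on GRCh37, not the RefSeq model that was counted. Intervals cover counting error only.

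The members and gene lists were chosen with earlier results of these data known. All 10 members are described. Of each pathway list, the called genes with the largest change (up to 2 each for EC359 against vehicle, vorinostat against vehicle and EC359+vorinostat against vorinostat) are named, as are LIFR and, for CTGF, CYR61 and ANKRD1, the 3 genes nearest in pattern with an average log2 CPM of at least 3, apart from items not reported here. FJX1, TEAD3, FRMD6, NUAK2, IGFBP3, TYRO3, GAS6 and PROS1 were named beyond these, with their values known.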

Additional observations from a re-analysis of the deposited data

Results flagged for a closer look

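The effect of EC359 on CTGF differed between cells without and with vorinostat: it was -0.59 on the log2 scale against vehicle and 1.13 against vorinostat, and the difference itself, tested as the interaction term, was 1.72 (SE 0.12, edgeR adjusted p = 1.2e-04). Both EC359 libraries lay below both vehicle libraries, and both EC359+vorinostat libraries lay above both vorinostat libraries.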

How the results depend on the processing

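The number of members called was 6, 8, 3 and 7 in the comparisons with vorinostat and stayed within 1.5 times of these under every alternative run. With EC359 alone it was 0, but 4 without a fold threshold and 0 to 1 with a library left out, the 1 being ANKRD1 (4.39, adjusted p = 0.0032) without the first EC359 library. The called interactions numbered 1, and 1 to 2 with a library left out. Some values that were not called changed sign. AXL with EC359 was -0.00063 by total counts (0.01 by TMM) and ran from -0.0399 to 0.0844 with a library left out. Under the same omission the range was -0.0236 to 0.26 for YAP1, -0.0126 to 0.17 for TEAD4 and -2.32 to 5.58 for ANKRD1 with EC359, -0.0177 to 0.0853 for TEAD1 with vorinostat, -0.45 to 0.0711 for YAP1 on adding EC359 to vorinostat, and -0.42 to 0.0294 for WWTR1, -3.69 to 4.22 for ANKRD1 and -0.0554 to 0.22 for TEAD4 in the interaction. None of these was called on all libraries, and the cause was not tested. The largest of them were those of ANKRD1, at 3.27 with EC359 and -1.37 in the interaction on all libraries. TEAD4 with EC359+vorinostat against EC359 fell below the fold threshold (-0.97) without the second EC359 library, and AMOTL2 with vorinostat passed it (-1.03) without the second vehicle library.

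Over all genes, dropping the fold threshold raised the calls from 502 to 1071 for EC359, from 4123 to 7130 for vorinostat, from 4763 to 7718 for EC359+vorinostat, from 582 to 1877 against vorinostat and from 4620 to 7642 against EC359. With only the groups compared in the fit, EC359 called 233. Leaving out a library gave 298 to 924 calls for EC359, 285 to 730 on adding EC359 to vorinostat, and 56 to 1437 for the interaction (288 on all libraries, 685 with DESeq2, 925 at an adjusted p under 0.05). Calls on adding EC359 to vorinostat split 462 higher and 120 lower by TMM but 380 and 182 by total counts, which moved the median of all genes from -0.01 to -0.10. With 2 libraries per group, small differences could not be resolved.

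The groups share replicate numbers, but same-numbered samples did not deviate together in all groups (correlations of -0.17 to 0.23 between groups). The correlation was 0.23 between vehicle and EC359, and -0.17 to -0.10 between EC359+vorinostat and each other group. The numbers were therefore not taken as pairs. With the replicate as a block, the addition of EC359 to vorinostat called 2 members, since ANKRD1 had an adjusted p of 0.012, and the interaction called 189 genes. The crossed pairing, chosen after seeing the data, called 3 members and 477 genes.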

Other observations

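The relatives and partners of the target members were followed in 9 genes, of which 6 were tested. EC359 called 1 lower (3.67% of all genes were called), vorinostat 1 higher (30.1%), and EC359+vorinostat 1 higher and 3 lower (34.8%). The addition of EC359 to vorinostat called 0 (4.25%), and DESeq2 also called 0. An unadjusted p under 0.05 was reached there by 3 (share of all genes not counted). The 3 receptors of the TAM family differed. AXL fell with vorinostat, whereas MERTK was 7.18 and 6.96 normalized CPM in vehicle, 10.9 and 8.93 with EC359, and 17.8 to 22.6 in the 4 libraries with vorinostat. MERTK rose by 1.38 on the log2 scale with vorinostat (SE 0.16, edgeR adjusted p = 7.8e-05). TYRO3 fell by 1.36 with EC359+vorinostat (SE 0.15, edgeR adjusted p = 4.3e-05). GAS6, the ligand of all 3, fell by 1.65 with EC359+vorinostat (SE 0.15, edgeR adjusted p = 1.3e-05), while PROS1, an alternative ligand of TYRO3 and MERTK, gave -0.24 (SE 0.12, edgeR adjusted p = 0.11).

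WISP2, a CCN family relative of CTGF and CYR61 that lacks the C-terminal domain of the family, had 42 and 48 counts in vehicle, 2 and 3 with EC359, 20 and 17 with vorinostat, and 4 and 6 with EC359+vorinostat. It fell by 4.14 on the log2 scale with EC359 (SE 0.55, edgeR adjusted p = 0.0011) and by 3.02 with EC359+vorinostat (SE 0.49, edgeR adjusted p = 4.8e-04). NOV, WISP1 and ANKRD2 had at most 12 counts in any library and did not pass the filter.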
